A study of Mus musculus with 4 samples.

Results

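The Schlafen genes of the mouse form a family of closely related copies on chromosome 11. The 7 members described here, Slfn1, Slfn2, Slfn3, Slfn4, Slfn5, Slfn8 and Slfn9, were chosen by name, through the NCBI gene IDs of the count table, and all 7 were found among its 27179 genes. Counts were the number of reads assigned to a gene, and 3 of the 7 members, Slfn3, Slfn8 and Slfn9, had enough of them to pass edgeR's filter on low counts. Over the whole table, 13580 genes passed that filter.

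Schlafens were first described in developing and activated T cells, where their levels follow growth arrest and activation, and many of them are induced by interferons. The short members Slfn1 and Slfn2 consist of little more than the conserved core shared by the family, the intermediate members Slfn3 and Slfn4 extend it, and the long members Slfn5, Slfn8 and Slfn9 add a region related to helicases. Members of the family bind or cut transfer RNA, restrain translation or act at stalled replication forks, with roles that differ between members and between species.

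MC38 cells, a mouse colon carcinoma line labelled as wild-type, were sequenced as bulk RNA in 4 conditions, with 1 library for each. The conditions were untreated control under normoxia, untreated control under hypoxia, IFN-γ under normoxia and IFN-γ under hypoxia. Per the methods of the study, IFN-γ was given at 5 ng/mL for 24 h in most experiments, and oxygen was 20% in normoxia and 1.5% in hypoxia. The comparisons asked what IFN-γ and hypoxia each changed, and whether the change with IFN-γ differed between the oxygen levels.

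The libraries held 34302971 counts (control, normoxia), 34514248 (control, hypoxia), 34537939 (IFN-γ, normoxia) and 34420642 (IFN-γ, hypoxia), so depth differed by a factor of 1.01 at most. No condition had a replicate, and a difference between 2 libraries compares those libraries. In bulk RNA, a change in the share of cells that carry a transcript and a change in RNA per cell cannot be told apart. Of the counts between 1 and 10 in the table, 65.5% were even, against 50.3% of those above 1000, and a count of 2 was found 4317 times and a count of 1 only 2023 times. An excess of even counts arises when both reads of a fragment are counted. The 95% intervals given below treat every count as independent and cover counting error only, so they may be too narrow, and intervals from counts divided by 2 are given where they change the reading.

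The cells were checked against markers of the labelled tissue and of other cell types. Of 10 epithelial markers, Epcam, Cdh1, Krt18, Cdx2 and Cldn7 had at most 3 counts in every library, and the most abundant, Krt8, had 90 counts in control normoxia, 56 in control hypoxia, 56 in IFN-γ normoxia and 48 in IFN-γ hypoxia. The epithelial list as a whole summed to 113, 109, 91 and 85 counts in the same order, so the epithelial character of the label is hardly visible in this RNA. Schlafens are best known from lymphocytes and myeloid cells, and several defining markers of these had no or almost no counts. Cd3g, Cd8a and Cd2 had no count, Cd3e had 1 count in 1 library, Ms4a1 had none, and Itgam and Adgre1 had none. The 8 T cell markers summed to 29, 26, 18 and 23 counts, led by Cd3d with 20, 16, 6 and 14, and Lck of the same list, too low to be tested, had 0, 4, 9 and 8. The 4 B cell markers summed to 32, 21, 14 and 8, led by Cd79a with 26, 21, 13 and 8. The part of the T and B cell markers in the Schlafen values was not tested. The 8 myeloid markers summed to 844, 955, 888 and 798 counts, most of them on Cd14 (541, 611, 576 and 538), with 209, 236, 212 and 170 on Cd68 and 69, 96, 77 and 82 on Lyz2. The pan-leukocyte gene Ptprc had 11, 7, 12 and 2. The 8 stromal or endothelial markers summed to 1557, 1653, 1438 and 1399, led by Pdgfra (1177, 1341, 1175 and 1077). Acta2 of that list had 7, 6, 17 and 30 counts and was called with IFN-γ, at a log2 change of 1.83 ± 0.59 (SE) and an adjusted p of 0.0377 (edgeR, Benjamini-Hochberg), a call that was kept in 2 of 7 other fits, with adjusted p-values of edgeR or DESeq2 from 0.0208 to 0.9999 over the 7. One of the 2 was the fit with an assumed coefficient of variation of 0.2 (0.0208, edgeR), which did not call Slfn9. Its part in the Schlafen values was not tested.

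Slfn9, a long member, had the most counts of the family. It had 1906 counts in control normoxia, 1782 in control hypoxia, 2655 in IFN-γ normoxia and 2508 in IFN-γ hypoxia. Slfn3, an intermediate member studied in the differentiation of intestinal epithelium, had 641, 628, 760 and 764 counts in the same order of libraries. Slfn8, the long member most like Slfn9 in sequence, had 162, 141, 328 and 349. For each of these 3 genes, both IFN-γ libraries lay above both control libraries.

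**Figure D1:**
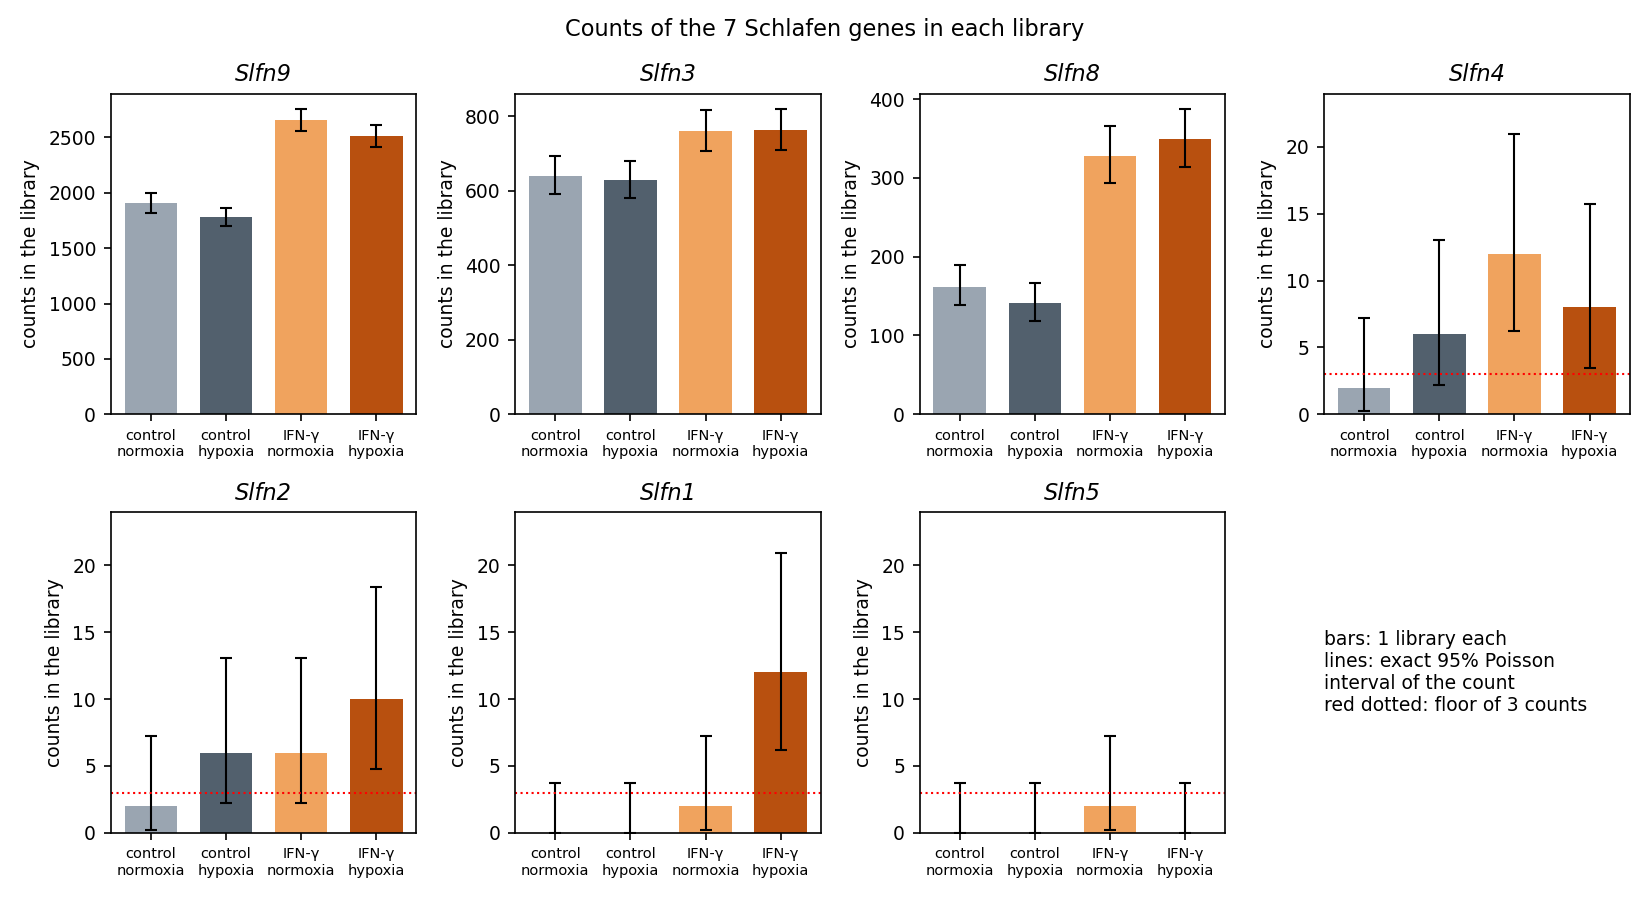
Counts of the 7 Schlafen genes (vertical axis, on a scale of its own for Slfn9, Slfn3 and Slfn8) in the 4 libraries (horizontal axis). Each bar is 1 library, black lines are exact 95% Poisson intervals of the count, and the dotted line marks the floor of 3 counts. Both IFN-γ bars stand above both control bars for Slfn9, Slfn3 and Slfn8, while the other 4 genes reach 12 counts at most.

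Slfn4, Slfn2, Slfn1 and Slfn5 were close to the floor, set at 3 counts for a gene with no detected read. The 2-sided 95% Poisson interval of a count of 0 reaches somewhat higher, to 3.69 counts. In each library the floor came to about 0.087 CPM, the count scaled to library size. Slfn4, an intermediate member known from myeloid cells, had 2, 6, 12 and 8 counts in the order given above. Slfn2, a short member needed by T cells to stay quiescent, had 2, 6, 6 and 10. Slfn1, the short member that arrests growth when overexpressed in T cells, had no count in either control library, 2 in IFN-γ normoxia and 12 in IFN-γ hypoxia. Slfn5, a long member, had 2 counts in IFN-γ normoxia and none elsewhere. Together these 4 genes held 4, 12, 22 and 30 counts.

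Per kilobase of exon, the order of the 3 measured genes was the same in every library. In control normoxia the level was 9.23 CPM per kilobase for Slfn9 (95% counting interval 8.82 to 9.65), 5.43 for Slfn3 (5.01 to 5.86) and 1.14 for Slfn8 (0.974 to 1.33). With IFN-γ under normoxia the levels were 13.0, 6.50 and 2.34. These intervals did not overlap between the 3 genes in any library, whereas those of Slfn1, Slfn2 and Slfn4 overlapped in each library, so their order is not resolved. Among 12949 tested genes with an annotated exon length, the level of Slfn9 stood at percentile 60.9 in control normoxia, that of Slfn3 at 48.2 and that of Slfn8 at 22.6. The Schlafen transcripts of these cells were therefore of middling to low abundance, with Slfn9 above and Slfn8 below the median tested gene.

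The effect of IFN-γ was estimated with that of hypoxia in 1 additive model by edgeR's quasi-likelihood test. All 3 Schlafens that passed the filter, of the 7 in the family, were raised at an adjusted p under 0.05, and none was lowered, where the test called 4.76% of all tested genes raised and 1.10% lowered. The median fitted log2 change of the 3 was 0.50, against -0.01 over all tested genes. With 1 library per condition, the spread in this test is the departure of genes from additivity, with 1 residual degree of freedom per gene, and edgeR took it wholly from the trend over all genes. The adjusted p-values do not stand for replicate cultures.

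Slfn8 had the largest change among the 3. Its fitted log2 change with IFN-γ was 1.17 ± 0.15 (SE), a 2.26-fold rise, with an adjusted p of 1.34e-13 (edgeR, Benjamini-Hochberg), and it was higher in 2 of 2 pairs. Of the 647 genes raised by IFN-γ, 207 had a larger fitted change than Slfn8, whose change exceeded the median of 0.65 for raised genes. Slfn9 rose by 0.50 ± 0.07 on the log2 scale, a 1.41-fold rise, with an adjusted p of 3.45e-11 (edgeR, Benjamini-Hochberg), also in 2 of 2 pairs. It lay below the median raised gene. Under an assumed coefficient of variation of 0.2 between cultures, in place of the pooled value of 4.71%, Slfn8 was still called with an adjusted p of 0.00926 by edgeR's likelihood ratio test. Slfn9 was not (adjusted p = 0.9999 by the same test). Of 8 other fits of each gene, this one included, Slfn8 was called in 8, with adjusted p-values of edgeR or DESeq2 from 1.33e-07 to 0.0132, and Slfn9 in 7, from 2.14e-07 to 0.0379.

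Slfn3 was at the edge of the test. Its fitted log2 change was 0.28 ± 0.09 (SE), a 1.21-fold rise, with an adjusted p of 0.0455 (edgeR, Benjamini-Hochberg), and it was higher in 2 of 2 pairs. The size of the change was nearly the same in 8 other fits of this gene, from 0.26 to 0.29, but none of them called it, with adjusted p-values of edgeR or DESeq2 from 0.0501 to 0.9999. The call for Slfn3 thus rests on the particular fit, while the counts of both pairs point the same way.

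**Figure D2:**
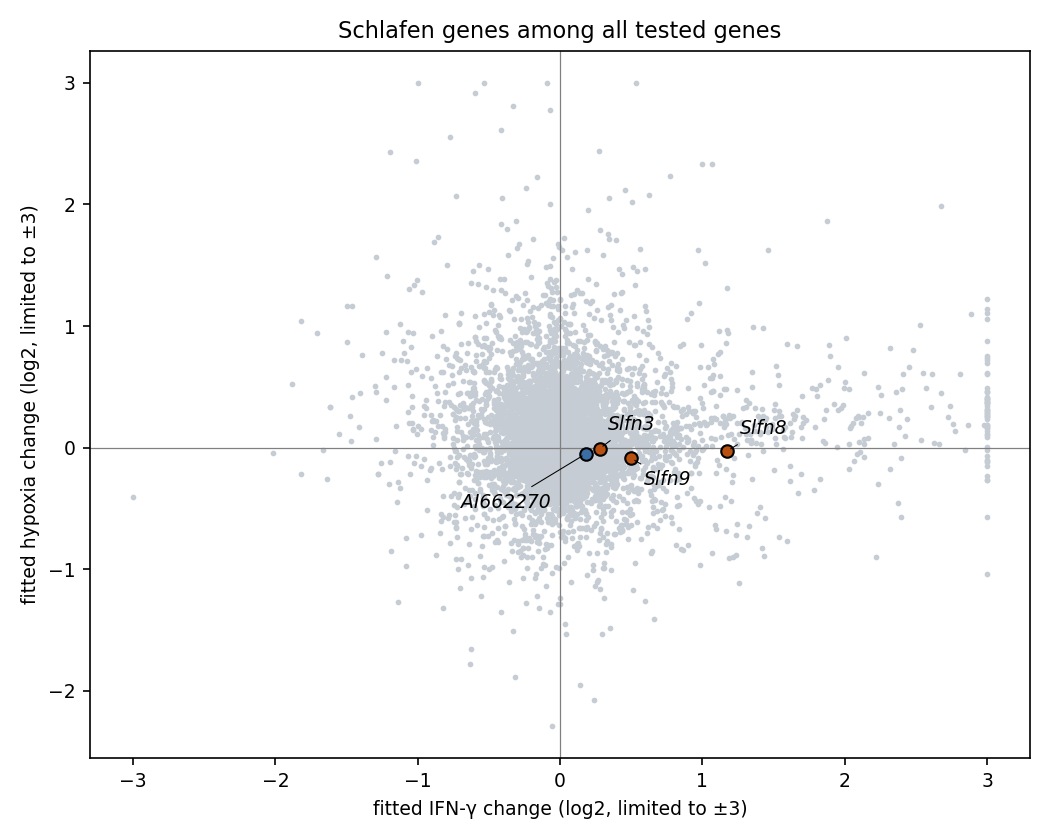
Fitted IFN-γ change (horizontal axis) and fitted hypoxia change (vertical axis) of the 13580 tested genes, on the log2 scale of the additive edgeR model, with values beyond 3 drawn at 3. Orange points are Slfn8, Slfn9 and Slfn3, spread from 0.28 to 1.17 along the IFN-γ axis and close to 0 along the hypoxia axis, and the blue point is the long noncoding RNA gene AI662270 of the same cluster.

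Each pair of libraries that differed in IFN-γ alone gave a similar picture. Slfn8 was 2.04-fold higher with IFN-γ under normoxia (95% Clopper-Pearson interval 1.69 to 2.48) and 2.498-fold higher under hypoxia (2.05 to 3.06). Slfn9 was 1.41-fold higher (1.33 to 1.49) and 1.42-fold higher (1.34 to 1.51). Slfn3 was 1.20-fold higher (1.08 to 1.33) and 1.23-fold higher (1.10 to 1.37). The intervals of all 3 genes lay above 1 in both pairs, and they did so with the counts divided by 2.

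The log2 change with IFN-γ under hypoxia minus that under normoxia was 0.29 for Slfn8 (95% Poisson interval -0.10 to 0.68), 0.01 for Slfn9 (-0.11 to 0.14) and 0.04 for Slfn3 (-0.18 to 0.25). Over 10443 well-counted genes (100 counts or more in each library), the central 95% of the same difference ran from -0.36 to 0.40. All 3 Schlafens lay inside that range, and no difference between the oxygen levels was detectable for them at this depth. Without replicates this difference could not be tested.

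**Figure D3:**
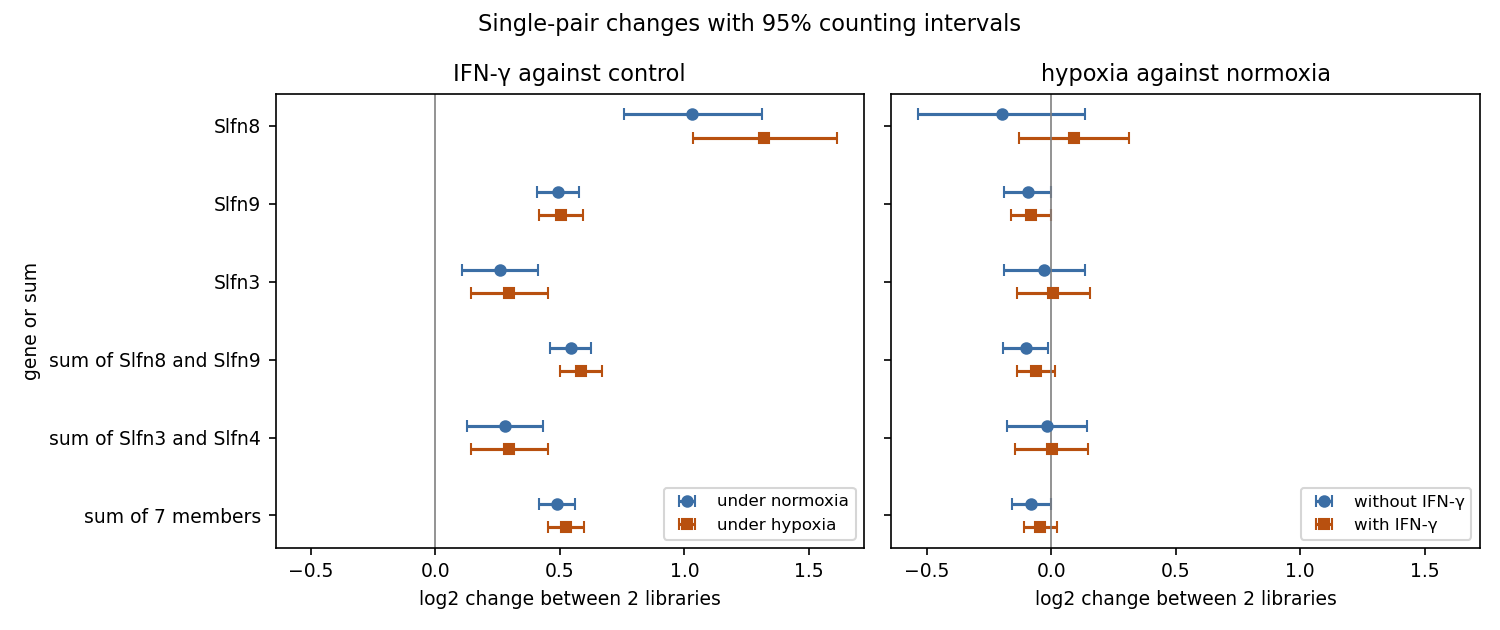
Log2 change between 2 single libraries (horizontal axis) for Slfn8, Slfn9, Slfn3 and sums of family members (vertical axis), for IFN-γ against control (left) and hypoxia against normoxia (right). Points are ratios of normalized counts and lines are 95% counting intervals. The IFN-γ changes lie to the right of 0 in both pairs, and the hypoxia changes lie near 0.

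The 3 measured Schlafens did not change by the same factor. Within a library their counts can be compared without any normalization, and the log2 change of Slfn8 with IFN-γ exceeded that of Slfn9 by 0.54 under normoxia (95% Poisson interval 0.26 to 0.82) and by 0.81 under hypoxia (0.52 to 1.11). It exceeded that of Slfn3 by 0.77 (0.46 to 1.08) and 1.02 (0.70 to 1.35). With counts divided by 2 these 4 intervals still lay above 0. Slfn9 exceeded Slfn3 by 0.23 (0.06 to 0.41) and 0.21 (0.03 to 0.39), and with counts divided by 2 both of these intervals included 0 (-0.01 to 0.48 and -0.04 to 0.46). Slfn8 therefore stood apart from the other 2 genes by more than counting error, and the order of Slfn9 and Slfn3 was less certain.

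The make-up of the family shifted accordingly. Slfn8 held 5.97% of the Schlafen counts in control normoxia (95% Clopper-Pearson interval 5.11 to 6.93%), 5.50% in control hypoxia (4.65 to 6.46%), 8.71% in IFN-γ normoxia (7.83 to 9.66%) and 9.56% in IFN-γ hypoxia (8.62 to 10.6%). Slfn3 held 23.6%, 24.5%, 20.2% and 20.9% in the same order, and Slfn9 held 70.3%, 69.5%, 70.5% and 68.7%. The share of Slfn8 was higher in both IFN-γ libraries than in either control library, with intervals that did not overlap, while Slfn9 made up about 70% of the family throughout.

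**Figure D4:**
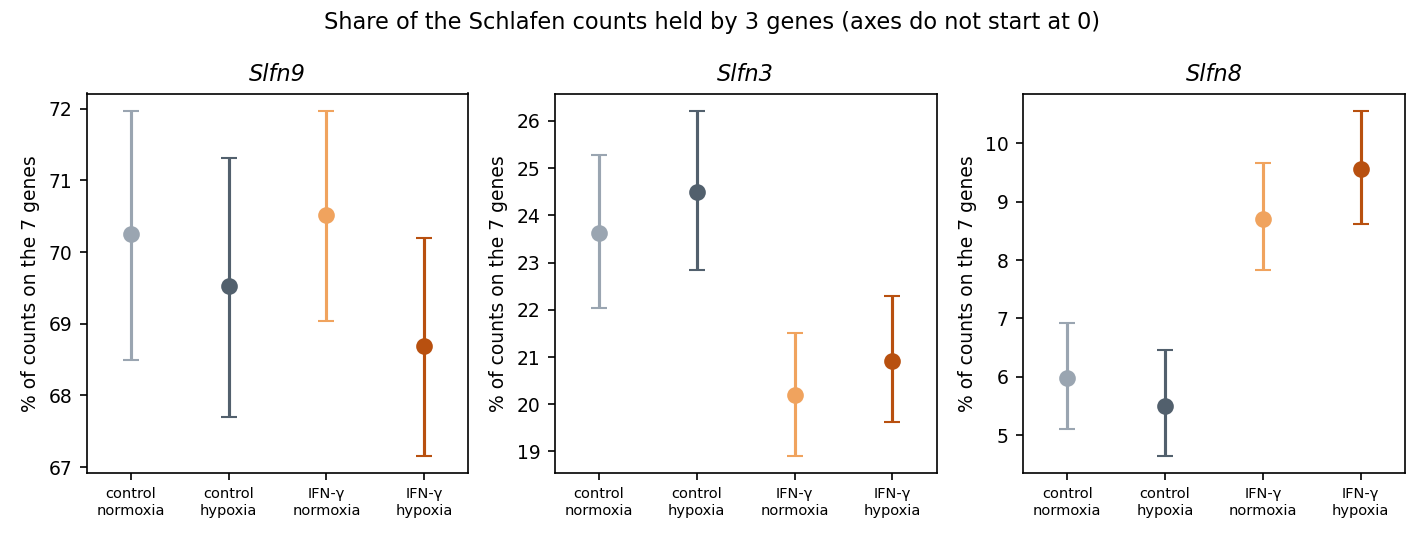
Share of all counts on the 7 Schlafen genes (vertical axis, in percent, not starting at 0) held by Slfn9, Slfn3 and Slfn8 in the 4 libraries (horizontal axis), with 95% Clopper-Pearson intervals. The share of Slfn8 lies between 5.50 and 5.97% in the control libraries and between 8.71 and 9.56% in the IFN-γ libraries.

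The 4 members that did not pass the filter gave little to measure. Slfn1 was at least 4.04-fold higher with IFN-γ under hypoxia, taking the floor of 3 counts for the control library. That bound leaves out the counting error of the 12 counts, with which the lower 95% Clopper-Pearson limit of the ratio was 2.80, or 0.25 on the log2 scale with counts divided by 2. No fold is given for Slfn1 under normoxia, where both libraries were under the floor. Slfn4 gave a ratio of 6.06 with IFN-γ under normoxia (95% Clopper-Pearson interval 1.35 to 55.7) and of 1.35 under hypoxia (0.409 to 4.70). The first of these rests on a control count of 2, and with counts divided by 2 its log2 interval included 0, at -0.44 to 8.12. Slfn2 gave 3.03 (0.542 to 30.7) and 1.68 (0.554 to 5.63). The summed counts of the 4 genes were 5.55 times as high with IFN-γ under normoxia (1.89 to 22.2) and 2.52 times as high under hypoxia (1.25 to 5.41), and with counts divided by 2 the second log2 interval reached from -0.11 to 2.99. Fitted without a filter, none of the 4 was called with either stimulus, and the lowest adjusted p with IFN-γ, for Slfn1, was 0.398 (edgeR, Benjamini-Hochberg).

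No change with hypoxia was detected for the 3 measured Schlafens. None of the 3 was called by edgeR, where 8.21% of all tested genes were raised and 6.83% lowered. None called of 3 is near these shares, so the count by itself is no result about the family. None had an unadjusted p under 0.05, and DESeq2 called none either. The fitted log2 changes were -0.09 ± 0.07 (SE) for Slfn9, -0.03 ± 0.15 for Slfn8 and -0.01 ± 0.09 for Slfn3, with adjusted p-values of 0.456, 0.936 and 0.970 (edgeR, Benjamini-Hochberg). The signs for Slfn8 and Slfn3 were not stable, since Slfn8 was at 0.0023 in the fit without IFN-γ in the model and Slfn3 at 0.00041 with counts divided by 2. The median of the 3 was -0.03, against 0.00 over all tested genes.

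Slfn9 was slightly lower under hypoxia in both pairs. Its level under hypoxia was 0.937 times that under normoxia without IFN-γ (95% Clopper-Pearson interval 0.878 to 0.9996) and 0.946 times with IFN-γ (0.895 to 0.999). With counts divided by 2 the log2 intervals included 0, at -0.23 to 0.04 and -0.19 to 0.03. For Slfn8 the ratios were 0.872 (0.691 to 1.10) and 1.065 (0.913 to 1.24), and for Slfn3 they were 0.981 (0.878 to 1.10) and 1.01 (0.909 to 1.11). At this depth, a hypoxia change of Slfn3 or Slfn8 was not detectable in either pair.

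Among the 4 members below the filter, Slfn1 gave a ratio of 6.01 with hypoxia in the presence of IFN-γ (95% Clopper-Pearson interval 1.34 to 55.2). This rests on 2 counts under normoxia, and with counts divided by 2 its log2 interval included 0, at -0.46 to 8.11. The summed counts of the 4 genes were 3.01 times as high with hypoxia without IFN-γ (0.911 to 12.8) and 1.36 times as high with it (0.761 to 2.48), and the intervals of Slfn2 and Slfn4 included a ratio of 1 in both pairs. No fold is given for Slfn1 without IFN-γ or for Slfn5.

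Reads of close copies can be assigned to the wrong one, so the sequence that the copies share was measured on GENCODE vM21 transcripts. The longest transcripts of Slfn8 and Slfn9 were identical at 92.1% of aligned bases, and those of Slfn3 and Slfn4 at 81.2%. Of the 31-base words of Slfn8, 19.1% also occurred in Slfn9 and 18.7% in the pseudogene Slfn10-ps, while 15.1% of the words of Slfn3 occurred in Slfn4 and 10.8% in the pseudogene Gm11427. In windows of 100 bases, 3.38% of Slfn8, 3.71% of Slfn9 and 2.92% of Slfn3 matched any other gene exactly. By exact match, most 100-base windows of these 3 genes thus fitted 1 gene only. Of the 31-base words, 27.3% of Slfn8, 24.55% of Slfn9 and 30.9% of Slfn3 also occurred in some other gene. Matches with mismatches were not tested. How the counting treated reads that fit several genes is not given in the sources used here. Slfn10-ps itself had 1, 2, 3 and 9 counts.

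Sums over copies do not depend on how reads were split between the copies summed. This does not cover reads shared with genes outside the sums, such as Slfn10-ps and Gm11427, or any reads left out of the counting. The sum of Slfn8 and Slfn9 was 2068, 1923, 2983 and 2857 counts, which was 1.46-fold higher with IFN-γ under normoxia (95% Clopper-Pearson interval 1.38 to 1.54) and 1.499-fold higher under hypoxia (1.41 to 1.59). The sum of Slfn3 and Slfn4 was 643, 634, 772 and 772 counts, 1.21-fold higher (1.09 to 1.35) and 1.23-fold higher (1.10 to 1.37). When these pairs were summed before the fit, both sums were called, with log2 changes of 0.56 ± 0.07 (SE) and 0.29 ± 0.09 and adjusted p-values of 6.33e-15 and 0.0329 (edgeR, Benjamini-Hochberg). The sum of all 7 members was 2713, 2563, 3765 and 3651 counts, 1.40-fold higher with IFN-γ under normoxia (1.33 to 1.47) and 1.44-fold higher under hypoxia (1.37 to 1.51). The family as a whole followed Slfn9, which held most of its counts. Under hypoxia the sum of 7 was 0.946 times that under normoxia without IFN-γ (0.896 to 0.999) and 0.971 times with it (0.927 to 1.02), and with counts divided by 2 the first log2 interval included 0, at -0.19 to 0.03.

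The promoters of 4 members are shown because 3 of these genes were measured and rose with IFN-γ, while the fourth, Slfn5, had almost no counts. Each is the 250 bases before a start in RefSeq for GRCm38.p6, read 5′ to 3′ on the strand of the gene, and RefSeq promoters were found for all 7 members. For Slfn5 the start used lies inside the annotated gene, chr11:82951349-82964850, so that its window is within the gene and not before it. Capitals mark the core of the interferon-stimulated response element, searched as GAAANNGAA on both strands (TTCNNTTTC on the other strand).
Slfn8: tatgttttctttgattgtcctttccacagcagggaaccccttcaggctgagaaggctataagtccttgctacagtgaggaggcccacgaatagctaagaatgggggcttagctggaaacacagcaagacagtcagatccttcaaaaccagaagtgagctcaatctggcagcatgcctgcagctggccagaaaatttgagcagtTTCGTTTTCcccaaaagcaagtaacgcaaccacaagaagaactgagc
Slfn9: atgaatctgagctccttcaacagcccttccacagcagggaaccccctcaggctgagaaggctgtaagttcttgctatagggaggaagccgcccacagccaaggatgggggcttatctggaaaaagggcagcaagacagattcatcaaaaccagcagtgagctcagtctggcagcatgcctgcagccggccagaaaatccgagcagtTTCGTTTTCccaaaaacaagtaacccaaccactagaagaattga
Slfn3: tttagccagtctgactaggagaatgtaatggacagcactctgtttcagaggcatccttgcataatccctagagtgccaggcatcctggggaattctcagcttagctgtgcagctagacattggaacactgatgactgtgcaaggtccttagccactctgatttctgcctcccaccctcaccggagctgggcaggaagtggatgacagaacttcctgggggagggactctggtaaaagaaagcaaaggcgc
Slfn5: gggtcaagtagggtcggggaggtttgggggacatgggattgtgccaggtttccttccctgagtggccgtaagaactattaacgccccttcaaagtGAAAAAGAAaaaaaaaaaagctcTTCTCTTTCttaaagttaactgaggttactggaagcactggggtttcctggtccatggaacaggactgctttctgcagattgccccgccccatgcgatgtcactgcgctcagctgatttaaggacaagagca
These lie, in the order given, at chr11:83020811-83021060 (minus strand), chr11:82991831-82992080 (minus strand), chr11:83191080-83191329 (plus strand) and chr11:82951852-82952101 (plus strand).

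The promoters of Slfn8 and Slfn9 were identical at 84.9% of the 292 bases that could be aligned, over windows of 300 bases that reach 50 bases past the start. The next most similar pair of the 7, Slfn2 and Slfn3, reached 66.0%. Slfn8 and Slfn9 both carried the same match to the response element core, TTCGTTTTC, beginning 47 bases before the start in Slfn8 and 44 bases before it in Slfn9. RefSeq's promoter table holds a second start for Slfn8, from which the same match begins 135 bases upstream. In Slfn5 there were 2 matches, which began 155 and 132 bases before the start, and the windows of Slfn1, Slfn2, Slfn3 and Slfn4 held none. Of all 32817 promoter windows of 300 bases, 8.55% held at least 1 match. The gamma-activated site, searched as TTCNNNGAA (the same on both strands), was found in 8.29% of all windows and in none of the 7 members. The core of the hypoxia response element, ACGTG or CACGT on the other strand, was found in 19.6% of all windows and likewise in none of the 7. The letters of these motifs overlap in part, and a match describes the sequence and nothing more. Its part in the changes was not tested.

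The 7 members lie within 344 kilobases of chromosome 11, between the overlapping noncoding gene Slfn5os and the platelet-linked member Slfn14, which had 0 and 1 counts in total. The span of the cluster in GRCm38.p6 is chr11:82942341-83286726. Slfn9 (chr11:82974316-82991830) and Slfn8 (chr11:83002125-83020810) are neighbours on the minus strand, and Slfn4 (chr11:83175172-83190216) and Slfn3 (chr11:83191330-83215154) are neighbours on the plus strand. The measured genes were thus not adjacent as a block, since Slfn2 and Slfn1, which were barely counted, lie between the pairs. The family member outside the cluster, Slfnl1 on chromosome 4, had 2 counts in 1 library.

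Next to Slfn3 on the same strand lies AI662270, a long noncoding RNA gene that was singled out after its values were seen. It had 5980, 5794, 6748 and 6471 counts, more than the 7 Schlafens together in each library, and a fitted log2 change with IFN-γ of 0.18 ± 0.06 (SE) with an adjusted p of 0.0290 (edgeR, Benjamini-Hochberg). It was called in 3 of 8 other fits that did not sum paralogs, with adjusted p-values of edgeR or DESeq2 from 0.0232 to 0.9999. The fit with paralogs summed called it too, with an adjusted p of 0.0289 (edgeR, Benjamini-Hochberg). Slfn3, its neighbour, was at 0.28 in the same additive fit. Of the 10 protein-coding genes that flank the cluster, 5 on each side, 9 were tested and none was called with IFN-γ, where 4.76% of all tested genes were raised and 1.10% lowered, so that none of 9 is near the background. Their fitted log2 changes ran from -0.59 to 0.12 with a median of -0.02, with Nle1 at 0.02 and Ap2b1 at -0.02. Hypoxia raised none of the 9, where 8.21% of all tested genes were raised and 6.83% lowered. None raised of 9 is near that share. Among those it lowered was Nle1, at -0.32 on the log2 scale with an adjusted p of 0.00023 (edgeR, Benjamini-Hochberg).

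**Figure D5:**
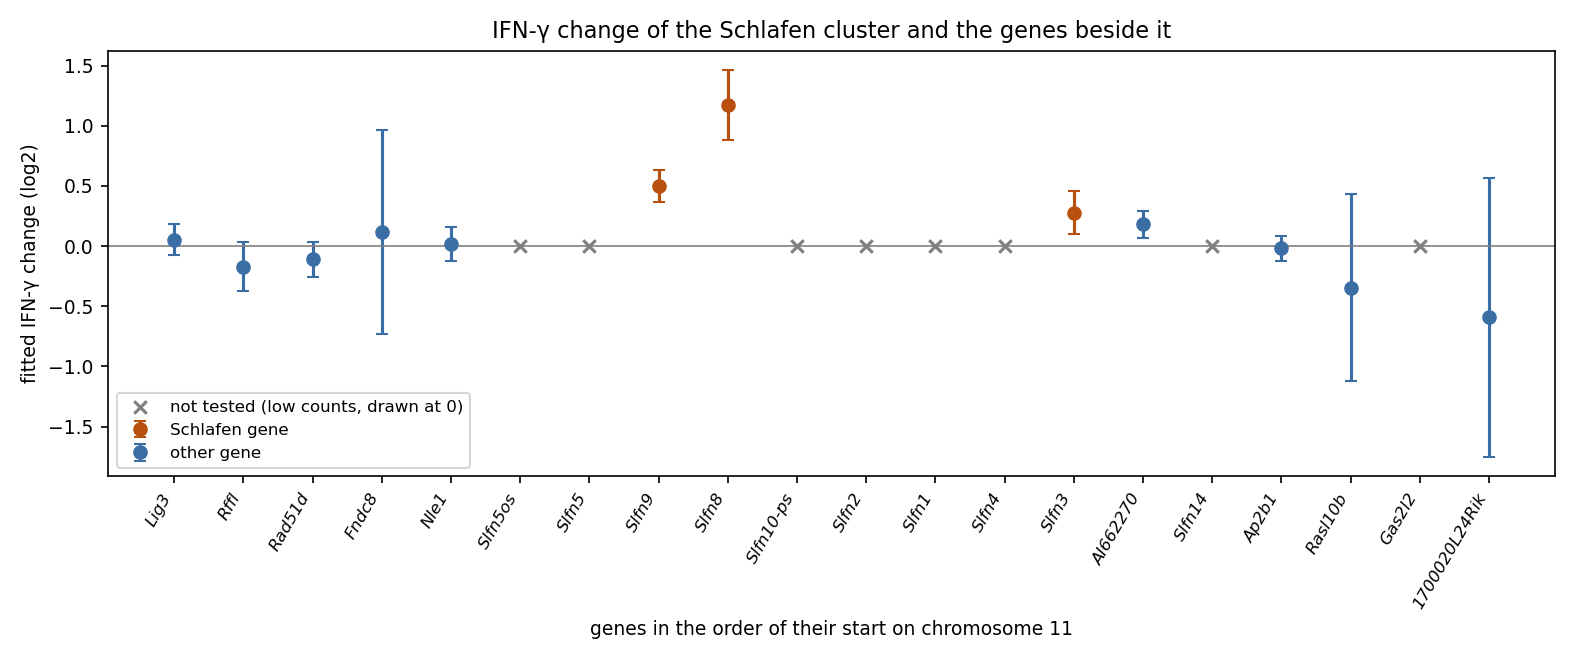
Fitted IFN-γ change (vertical axis, log2) of the Schlafen cluster and of protein-coding genes on either side, in the order of their starts on chromosome 11 (horizontal axis, not to scale). Lines are 95% intervals from the SE of the additive edgeR model, orange marks Schlafens, blue other genes, and crosses at 0 genes that were not tested. Slfn9, Slfn8, Slfn3 and AI662270 lie above 0 and the tested flanking genes drawn have intervals that include 0.

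The genes most like each measured Schlafen over the 4 libraries were found by the Euclidean distance of their centred log2 CPM among 11486 tested genes outside the family. Those nearest to Slfn8 were Mov10, an RNA helicase, with 2368, 2217, 4923 and 5703 counts at a distance of 0.12, then Ifi35 at 0.15 and C1ra, a complement protease, at 0.16. Since they were picked for likeness over these same libraries, their fitted log2 changes with IFN-γ, 1.22, 1.07 and 1.32, are near the 1.17 of Slfn8 by choice, and the same holds for the genes below. Nearest to Slfn9 were Synj2, Adar, which edits double-stranded RNA, and Rnf115, at distances of 0.051, 0.051 and 0.057, with IFN-γ changes of 0.49, 0.49 and 0.50. Nearest to Slfn3 were Med28, Armc8 and Necab3, at 0.021, 0.028 and 0.043. Necab3 was not called with IFN-γ (adjusted p = 0.747, edgeR, Benjamini-Hochberg). Within a distance of 0.2 lay 9 genes for Slfn8, 131 for Slfn9 and 774 for Slfn3, so the 3 named for Slfn3 hardly stand out from many others.

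Genes of related pathways give the scale for the Schlafen changes. Of 14 tested genes of 15 in IFN-γ signalling, 10 were raised and 1 was lowered with IFN-γ, where 4.76% of all tested genes were raised and 1.10% lowered. The median log2 change of the 14 was 0.81, against -0.01 over all tested genes, and the transcription factors Irf1 (2.43) and Stat2 (1.51) were among those raised, while the receptor chain Ifngr1 was at -0.25. Of 20 antiviral effectors that act on RNA or translation, 17 were raised and none lowered, with a median of 0.85, led by Zbp1 (4.38), Ifit3 (2.10) and Ifit3b (1.54). The change of Slfn8 exceeded both medians, and those of Slfn9 and Slfn3 were below them. The ligands of type I and III interferon had at most 2 counts in any library, and Ifng had none. The tested receptor chains, 2 of 12 genes on that list, were called with neither stimulus, and their medians were 0.08 with IFN-γ and -0.03 with hypoxia. None of 10 replication stress factors was called with IFN-γ (median 0.00), which is near the shares over all tested genes and is no result about these factors.

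With hypoxia, where no measured Schlafen was called, all 14 genes of the hypoxia response list were raised, against a background in which 8.21% of all tested genes were raised and 6.83% lowered. Their median log2 change was 1.24, with Car9 (2.14), Bnip3 (1.68) and Adm (1.503) in the lead. None of the 14 was called with IFN-γ, which is near the 4.76% raised and 1.10% lowered over all tested genes, and their median was -0.03. Hypoxia also raised 5 of the 14 IFN-γ signalling genes (median 0.05), with Jak2 at 0.30, Jak1 at 0.29 and Stat2 at 0.25, and 8 of the 20 antiviral effectors (median 0.17), with Khnyn at 0.69 and Oas3 at 0.41. Among the 10 replication stress factors it raised 1, Atr (0.34), and lowered 2, Cdt1 (-0.23) and Rpa2 (-0.18). The other 7 were not called, and the median was -0.08. These few calls are no result about the list as a whole. The 3 measured Schlafens, at -0.09 to -0.01, were not called, which is near the shares over all tested genes.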

How the data were processed

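The authors deposited whole-number read counts per gene for 4 poly-A selected, strand-specific MC38 libraries in 1 table. Reads were aligned with HISAT2, and the submitters' processing notes name featureCounts and mm10. The counting version, annotation, strand setting and treatment of reads that fit several genes are not given in the sources used here. NCBI gene IDs were matched to symbols in the RefSeq table for GRCm38.p6, which left 1904 of 27179 IDs without a symbol. Counts were tested with edgeR 4.0.16 in R 4.3.3 (quasi-likelihood test, TMM, additive model of oxygen and IFN-γ, default filter with a minimum of 10 counts, Benjamini-Hochberg at 0.05 over 13580 genes) after a test on simulated data. Single-pair log2 changes used TMM-normalized CPM with 0.5 counts added. DESeq2 1.42.0 was an alternative. Samples were grouped by the treatment labels.

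The members and gene lists were chosen with earlier results of these data known. The named genes were the 7 members, 4 other Schlafen genes, up to 3 called genes with the largest change per list, direction and stimulus, the most abundant markers, 5 flanking protein-coding genes on each side and the 3 genes nearest in pattern to each member with a mean of at least 50 counts. Some genes that this rule names are not reported here. Paralogs were summed where at least 10% of the 31-base words of a member were shared with another of the 7 members. Exon lengths were unions of GENCODE vM21 exons. Division of counts by 2 was added after the data were seen.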

Additional observations from a re-analysis of the deposited data

Results flagged for a closer look

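Slfn8 and Slfn3 drew attention because their hypoxia changes had opposite signs without and with IFN-γ. For Slfn8 the log2 change with hypoxia was -0.20 without IFN-γ (95% Clopper-Pearson interval -0.53 to 0.14) and 0.09 with it (-0.13 to 0.31), a difference of 0.29. For Slfn3 the changes were -0.03 (-0.19 to 0.13) and 0.01 (-0.14 to 0.16), a difference of 0.036. All 4 intervals included 0, and with 1 library per condition the differences were not tested.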

How the results depend on the processing

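The count of 3 Schlafens called with IFN-γ fell to 1, Slfn8, under an assumed coefficient of variation of 0.2 and when a log2 change of at least 1 was also required. The call for Slfn3 was lost in all 8 other fits of the gene alone. No fit called a Schlafen with hypoxia, and the reversed signs there were those of Slfn8 (0.0023, 2 libraries against 2) and Slfn3 (0.00041, counts divided by 2). The cause was not tested. The 42 single-pair changes recomputed with total counts and with 5 counts added stayed inside their counting intervals, although those with few counts fell strongly with 5 counts added. On the log2 scale, Slfn1 with IFN-γ under hypoxia went from 4.66 to 1.78. Its control count was 0, so both values are set by the counts added and neither is a measured change. With IFN-γ under normoxia, Slfn4 went from 2.34 to 1.29 and Slfn2 from 1.39 to 0.67. In the same pair, the sum of the 4 members below the filter went from 2.34 to 1.60. With hypoxia, Slfn1 in the presence of IFN-γ went from 2.32 to 1.28 and that sum without IFN-γ from 1.48 to 0.92.

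Counts over all genes moved more. With IFN-γ, raised genes went from 647 to 353 (DESeq2's Wald test), 239 (2 libraries against 2), 231 (assumed variation) and 238 (log2 change of at least 1). Lowered genes went from 149 to 99 (DESeq2's size factors), 16 (Wald test), 71 (no filter), 74 (at least 10 counts in every library), 3 (2 against 2), 5 (assumed variation) and 8 (log2 change of at least 1). With hypoxia, raised genes went from 1115 to 340, 150, 66 and 107, and lowered genes from 927 to 189, 26, 2 and 8, under the Wald test, 2 against 2, the assumed variation and the log2 rule.

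No paired analysis was possible because each condition had 1 library and so no replicate number to block on. The additive model itself compares IFN-γ with control within each oxygen level. Leaving out a library leaves 3 libraries for 3 coefficients, with no residual degree of freedom. Depth limits Slfn1, Slfn2, Slfn4 and Slfn5, whose largest count was 12.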
